A study of Mus musculus with 4 samples.

Results

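Transcripts of 8 genes of the integrated stress response were followed in single myogenic progenitors (MPs) of regenerating mouse muscle. The genes were Gdf15 and Fgf21, which encode stress hormones also called mitokines, the transcription factor genes Atf4 and Ddit3, and the stress-induced genes Trib3, Chac1, Asns and Sesn2. They are 8 of the 25827 genes listed for every library. They were picked by name, because Fgf21 in committed-like cells and Gdf15 in cycling-like cells leaned higher in both knockout libraries, so the genotype values in those cells are given as descriptions without a test. Ddit3 is listed under a pair of identifiers, of which the second held 0 UMIs (unique molecular identifiers, each a captured RNA molecule) in all 4 libraries, and the first was used.

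MPs were sorted 6 days after cardiotoxin, a toxin that destroys muscle fibres, had been injected into the tibialis anterior muscle of 12-week-old mice. Each library held α7 integrin-positive cells without CD45, CD31 or Sca1, pooled from 3 mice. The 2 control libraries came from mice that carry Cre under the Pax7 promoter (Pax7Cre), and the 2 knockout libraries from Pax7Cre mice that also carry a floxed miR-501 gene on their X chromosome (Pax7CremiR-501fl/Y, called miR-501KO). Both groups thus carry the Pax7Cre allele and both were injured. The Cre is not inducible, so cells of the Pax7 lineage had lost the miRNA before the injury, and other cells of the sort keep the gene. Replicate 1 of each group belongs to run 1 and replicate 2 to run 2. The miRNA itself is not measured by this chemistry. Its host gene Clcn5 was at 135 to 157 CPM in the 4 libraries (UMIs of a gene as a share of all UMIs of the same cells, scaled to the usual common total), and a 3′ tag of the host gene does not check the deletion.

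The integrated stress response is a program that cells switch on when amino acids run short, when proteins misfold in the endoplasmic reticulum, when heme is lacking or when mitochondria are disturbed. Kinases that sense these conditions phosphorylate the translation factor eIF2, general protein synthesis falls, and the mRNA of Atf4 is translated more. ATF4 then raises the transcription of genes for amino acid synthesis, amino acid uptake and tRNA charging, together with Ddit3, which encodes the factor CHOP. Because ATF4 is controlled mainly at translation, the level of Atf4 RNA is not a measure of its activity. In skeletal muscle the response is known for the release of FGF21 and GDF15 into the blood when mitochondria are damaged. FGF21 acts through FGF receptors with the co-receptor β-Klotho, and GDF15 acts through GFRAL in the brainstem.

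ATF4 binds with a C/EBP partner to a composite element, and the 250 bases before the start of Fgf21, Chac1 and Asns are shown because each holds its core before the start. The sequences are from RefSeq on build GRCm38.p6, 5′ to 3′ on the gene's strand, with the bases that match the core TGATGNAA on either strand in capitals. They span chr7:45615491-45615740 for Fgf21 (minus strand), chr2:119350992-119351241 for Chac1 (plus strand) and chr6:7693210-7693459 for Asns (minus strand).
Fgf21: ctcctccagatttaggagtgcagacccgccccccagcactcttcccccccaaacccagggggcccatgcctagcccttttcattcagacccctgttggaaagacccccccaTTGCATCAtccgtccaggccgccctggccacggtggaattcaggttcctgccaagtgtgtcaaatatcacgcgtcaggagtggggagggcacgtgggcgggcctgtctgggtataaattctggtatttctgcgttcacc
Chac1: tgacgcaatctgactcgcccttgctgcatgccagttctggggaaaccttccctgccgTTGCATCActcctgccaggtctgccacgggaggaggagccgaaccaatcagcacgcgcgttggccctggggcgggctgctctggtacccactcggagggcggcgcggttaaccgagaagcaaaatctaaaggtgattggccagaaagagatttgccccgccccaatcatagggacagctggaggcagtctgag
Asns: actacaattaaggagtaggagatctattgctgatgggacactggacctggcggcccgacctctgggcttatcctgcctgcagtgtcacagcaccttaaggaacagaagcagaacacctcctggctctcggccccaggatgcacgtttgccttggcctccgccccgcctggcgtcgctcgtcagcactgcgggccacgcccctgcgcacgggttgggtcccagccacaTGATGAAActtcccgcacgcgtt

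Counted from the first transcribed base, the match TTGCATCA began at −139 in Fgf21 and at −193 in Chac1, and TGATGAAA began at −23 in Asns. In Trib3, whose protein is a pseudokinase, TTACATCA began at 15, inside the transcribed part. The other 4 genes, Gdf15, Atf4, Ddit3 and Sesn2, held no match to this core, to the cyclic AMP response element TGACGTCA or to the endoplasmic reticulum stress element (ERSE) in the window from 250 bases before to 50 after any of their starts. In all 32851 RefSeq promoters of that length, the ATF4 core occurred in 3.97%, the cyclic AMP element in 1.79%, the endoplasmic reticulum element in 0.119% and any of the 3 in 5.84%. A match of letters describes the sequence and is not a measured binding site.

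After cells with fewer than 5000 UMIs or 1000 genes were left out, 10450 of 16519 barcodes remained, with 1829 to 3439 cells and a median of 25254 to 34579 UMIs per library. Clustering without the 8 genes and the listed pathway genes gave 20 clusters, which were named from marker genes. The MP classes were quiescent-like cells (468 to 609 per library), cycling-like cells (452 to 961) and committed-like cells (257 to 578). The committed-like class joined an early cluster, cluster 4, led by Myog, and a late cluster, cluster 9, led by the developmental myosin genes Myh8 and Myh3. Macrophage-like, mural-like and Schwann-like cells were present in every library in spite of the sort, with 343, 264 and 195 cells in all. The library of miR-501KO replicate 1 stood apart: 799 cells in 5 clusters, 28.2% of its cells against at most 1 cell of another library per cluster, belonged to clusters that were almost entirely its own. These clusters stayed unnamed and entered no class. In all, 9 clusters with 3553 cells were unnamed, among them the largest, cluster 1, with 2116 cells from all 4 libraries, led by Spp1. In cluster 1 Fgf21 was at 1.02 to 3.23 CPM and Gdf15 at 1.06 to 2.90 CPM. In the 3 MP classes the summed macrophage markers were at 16.7 to 59.4 CPM, against 37090 to 45277 CPM in macrophage-like cells.

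Gdf15, a secreted member of the TGF-β superfamily, was mainly a transcript of macrophage-like cells in this sort. Its level there was 459 and 539.7 CPM in Pax7Cre replicates 1 and 2 and 529 and 391 CPM in miR-501KO replicates 1 and 2. Mural-like cells followed with 52.2, 71.7, 44.0 and 41.2 CPM in the same order. Cycling-like cells held 6.73, 7.28, 10.7 and 12.0 CPM. These 3 classes did not overlap, and their order was the same in all 4 libraries. Schwann-like cells varied more, with 5.18, 1.23, 4.19 and 15.4 CPM.

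Quiescent-like cells held 3.31, 1.97, 2.35 and 2.50 CPM of Gdf15, and committed-like cells 0.832, 0.158, 1.33 and 2.37 CPM. The latter rest on 17, 2, 13 and 25 UMIs. Free RNA from broken cells can add UMIs to any droplet, and its part in these levels was not tested. The macrophage markers are set beside Gdf15 as a description. In committed-like cells the summed markers stood at 0.0433 to 0.0906% of their level in macrophage-like cells of the same library, and Gdf15 stood at 0.181%, 0.0292%, 0.251% and 0.605%. In Pax7Cre replicate 2 the committed-like share of Gdf15 was no larger than that of the markers. In cycling-like cells the markers stood at 0.0508 to 0.0743% and Gdf15 at 1.35 to 3.07%, above the markers in all 4 libraries.

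Fgf21, an endocrine fibroblast growth factor, was highest in committed-like cells among the named classes. They held 6.56 and 7.41 CPM in the Pax7Cre libraries and 17.1 and 56.7 CPM in the miR-501KO libraries, from 134, 94, 168 and 599 UMIs. All cells of these libraries, the unnamed clusters included, held 228, 194, 383 and 688 Fgf21 UMIs in the same order. Cycling-like cells were at 1.30, 1.48, 1.84 and 1.41 CPM, and quiescent-like cells at 0.221, 0.472, 0.841 and 0.646 CPM. The ranges of the 3 classes did not overlap. Macrophage-like cells held 2, 0, 0 and 0 UMIs, mural-like cells none in any library, and Schwann-like cells 1 in miR-501KO replicate 1 alone.

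**Figure D1:**
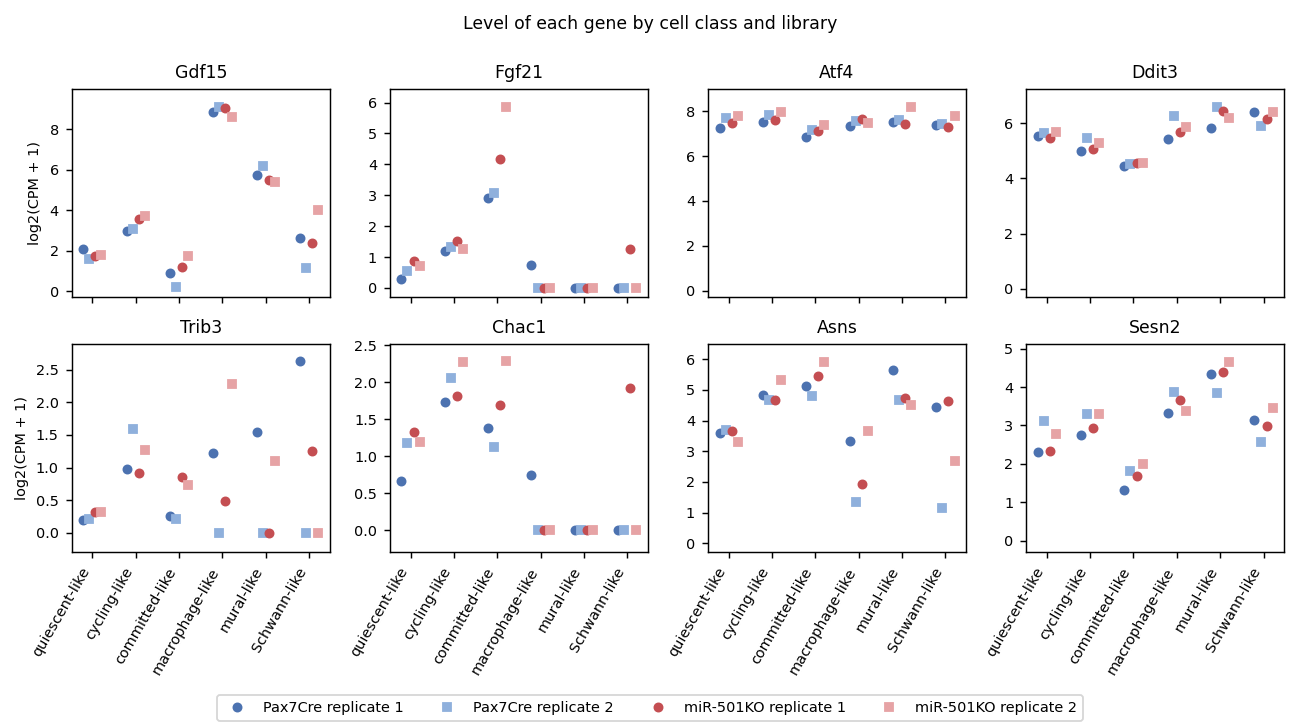
Level of the 8 genes in 6 cell classes, 1 panel per gene. The y axis is log2(CPM + 1) of summed UMIs and each point is 1 of the 4 libraries (blue Pax7Cre, red miR-501KO, circles and dark tones replicate 1, squares and light tones replicate 2). Gdf15 is highest in macrophage-like cells at 391 to 539.7 CPM and Fgf21 in committed-like cells at 6.56 to 56.7 CPM, while Atf4 and Ddit3 are detected in every class.

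Within the committed-like class Fgf21 followed the late cluster. In cluster 9 it was at 13.0, 17.3, 33.5 and 136 CPM, and in the early cluster 4 at 3.47, 3.6, 3.04 and 19.8 CPM, so that cluster 9 was higher in each library. Asns, whose product makes asparagine from aspartate, showed the same division, with 75.6, 58.6, 77.6 and 132 CPM in cluster 9 against 13.6, 14.3, 13.3 and 24.5 CPM in cluster 4. The clusters do not overlap for Asns.

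Atf4 was broadly expressed. Quiescent-like cells held 149.9, 210.2, 178 and 220.5 CPM, cycling-like cells 182, 231, 196 and 247 CPM and committed-like cells 115, 144, 138 and 168 CPM. Within every library the order was cycling-like, quiescent-like, committed-like, although the ranges over libraries overlap. The replicate 2 libraries were higher than the replicate 1 libraries of the same group in all 3 classes.

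Ddit3, which encodes the pro-apoptotic factor CHOP, was highest outside the MP classes, at 56.1 to 94.1 CPM in mural-like and 57.8 to 82.9 CPM in Schwann-like cells. Quiescent-like cells held 45.7, 48.9, 42.7 and 49.7 CPM, cycling-like cells 30.8, 43.4, 32.1 and 37.7 CPM and committed-like cells 20.6, 21.7, 22.5 and 22.3 CPM. The order of these 3 classes was the same in each library.

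Sesn2, whose protein sestrin 2 restrains the growth kinase complex mTORC1, was at 13.4 to 24.0 CPM in mural-like and at 9.09 to 13.7 CPM in macrophage-like cells. In the MP classes it stood at 3.97, 7.63, 4.03 and 5.90 CPM in quiescent-like, at 5.78, 8.91, 6.71 and 8.89 CPM in cycling-like and at 1.52, 2.52, 2.24 and 3.03 CPM in committed-like cells. Committed-like cells were lowest of the 6 classes in each library.

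Chac1, which encodes an enzyme that degrades glutathione, and Trib3 were rare. Chac1 was at 2.34, 3.15, 2.51 and 3.83 CPM in cycling-like, at 1.62, 1.18, 2.24 and 3.88 CPM in committed-like and at 0.588, 1.26, 1.51 and 1.29 CPM in quiescent-like cells. Trib3 was at 0.970, 2.02, 0.880 and 1.41 CPM in cycling-like cells. In committed-like cells its 0.196, 0.158, 0.816 and 0.663 CPM rest on 4, 2, 8 and 7 UMIs, and in quiescent-like cells each library held 2 or 3 UMIs. Asns was at 27.6, 24.4, 24.6 and 38.6 CPM in cycling-like, at 33.7, 26.6, 43.0 and 58.6 CPM in committed-like and at 11.2, 12.0, 11.5 and 8.96 CPM in quiescent-like cells, and the quiescent-like libraries lay below all others of the MP classes.

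The first comparison asked which of the genes differ between committed-like and quiescent-like cells of the same library. UMI sums were tested with the quasi-likelihood test of edgeR with the library as a block, with Benjamini-Hochberg adjustment over 12478 genes, and a gene was called at an adjusted p under 0.05. The classes differ throughout, and 71.8% of all genes were called, 34.9% higher and 36.9% lower in committed-like cells. A call alone therefore says little about a member, and the sizes are given. Of the 8 genes, Asns was called higher, Ddit3, Sesn2 and Atf4 were called lower, and Trib3 was too rare to test. Fgf21 is described without a p, because with 3, 6, 10 and 8 UMIs in quiescent-like cells it passed the filter on low counts only through the committed-like class, where it is high. Chac1, with 8 UMIs in quiescent-like cells of Pax7Cre replicate 1, and Gdf15, rare in committed-like cells, did not pass the filter in the class where they are low. They are described without a p as well.

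As a description, the fitted difference of Fgf21 was 5.37 on the log2 scale. It was at 21.9 ± 23.7 CPM in committed-like and at 0.545 ± 0.263 CPM in quiescent-like cells (SD, n = 4 libraries). Asns was 1.98 higher (SE 0.19, adjusted p = 7.8e-06; 40.5 ± 13.8 against 10.9 ± 1.33 CPM), and higher in 4 of 4 libraries. Chac1, also as a description, was 1.06 higher, in 3 of 4 libraries. With cluster 4 alone as the committed-like class the Chac1 difference was −0.096, and without miR-501KO replicate 2 it was 0.77. The difference thus rests on the late cluster and in part on that library.

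The 4 others fell. Ddit3 was lower by 0.96 on the log2 scale (SE 0.071, adjusted p = 1.0e-06), Sesn2 by 1.08 (SE 0.19, adjusted p = 4.5e-04) and Atf4 by 0.28 (SE 0.055, adjusted p = 0.0010), each in 4 of 4 libraries. Gdf15, as a description, was lower by 1.13, also in 4 of 4 libraries. The call of Atf4 was lost without the block (adjusted p = 0.072).

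Cycling-like cells were compared with the same quiescent-like sums in the same way, so the 2 comparisons share them, and 72.1% of 12982 genes were called, 35.4% higher and 36.6% lower. Of the 8 genes, Gdf15, Asns, Chac1, Sesn2 and Atf4 were called higher and Ddit3 was called lower. Trib3, with 44, 52, 21 and 41 UMIs in cycling-like against 2, 2, 3 and 3 in quiescent-like cells, and Fgf21, with 59, 38, 44 and 41 against 3, 6, 10 and 8, did not pass the filter among quiescent-like cells alone, so they are given by these counts and not by a fold or a p. Gdf15 was 1.88 higher on the log2 scale (SE 0.18, adjusted p = 2.2e-07). Asns was 1.45 higher (SE 0.13), Chac1 1.43 (SE 0.22), Sesn2 0.57 (SE 0.12) and Atf4 0.24 (SE 0.047), while Ddit3 fell by 0.32 (SE 0.063). The adjusted p of these 5 lay between 1.2e-07 and 6.5e-04 with the block, and each gene moved the same way in 4 of 4 libraries. Without the block Atf4 alone of the called genes lost its call (adjusted p = 0.12).

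The other genes of the pathway were taken from 9 lists with 82 genes. Cytosolic tRNA synthetases, which charge tRNAs with amino acids and include many ATF4 targets, had 10 of 12 members higher and 0 lower in committed-like than in quiescent-like cells, led by Gars (1.21), Lars (0.96) and Iars (0.71). In cycling-like cells 10 of 12 were higher as well, led by Gars (0.97), Aars (0.79) and Mars1 (0.78). Their median log2 fold changes were 0.65 and 0.61, beside −0.024 and −0.037 over all genes. Enzymes of serine, glycine, proline and one-carbon synthesis divided the classes: 8 of 9 tested were higher in cycling-like cells, led by the mitochondrial folate enzyme Mthfd2 (2.23), Phgdh (1.66) and Psat1 (1.62), but in committed-like cells 4 of 7 were higher, with Psat1 (0.90), Shmt2 (0.77) and Psph (0.58) in front, and 2 were lower.

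Chaperones and targets of the endoplasmic reticulum stress factors XBP1 and ATF6 moved down in committed-like cells, where 11 of 13 were lower and 0 were higher, among them Edem1 (−1.26), Hspa5 (−1.01) and Dnajc3 (−0.93). In cycling-like cells 6 were higher and 5 lower, with Dnajb9 at −1.07, Sdf2l1 at 1.0 and Xbp1 at −0.69. Mitochondrial chaperones and proteases went the other way, with 8 of 8 higher in committed-like cells (Hspa9 1.09, Hspd1 0.93, Trap1 0.78) and 7 of 8 in cycling-like cells (Hspd1 1.23, Hspe1 0.76, Hspa9 0.73). The other stress transcription factors were all 6 lower in committed-like cells (Atf3 −1.66, Cebpb −1.56, Nupr1 −0.79), and 5 of 6 were lower in cycling-like cells (Cebpb −1.27, Atf3 −0.70, Nupr1 −0.36).

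Of the genes for the eIF2 kinases and the phosphatase arm that reverses them, 2 of 9 were higher and 5 lower in committed-like cells. Eif2ak3, which encodes the endoplasmic reticulum kinase PERK, was at −1.94, Eif2ak2, which encodes the RNA sensor PKR, at −1.32, and Eif2ak1, which encodes the heme-regulated kinase HRI, at 1.31. In cycling-like cells 3 were higher and 3 lower (Eif2s1 0.88, Ppp1r15a −0.85, Eif2ak2 −0.56). Of the amino acid transporters 1 of 6 was higher and 5 lower in committed-like cells (Slc1a4 −1.73, Slc1a5 −0.70, Slc7a1 0.70), and 4 of 7 were higher and 1 lower in cycling-like cells (Slc7a11 1.96, Slc7a1 0.74, Slc1a5 0.62).

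Targets of p53, which can also raise Gdf15 and Sesn2, had 6 of 9 higher and 3 lower in committed-like cells, where Cdkn1a, the cell cycle inhibitor p21, led with 2.79 before Ccng1 (1.41) and Aen (0.69). In cycling-like cells 6 were higher and 2 lower (Ccng1 1.11, Bax 0.97, Aen 0.93). Of the receptors through which FGF21 and GDF15 act, 4 of 7 passed the filter on low counts, and 3 were lower in committed-like cells: Ret at −1.26, Fgfr4 at −1.18 and Fgfr1 at −0.51. In cycling-like cells Fgfr1 (−1.07) and Fgfr4 (−0.37) were lower.

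**Figure D2:**
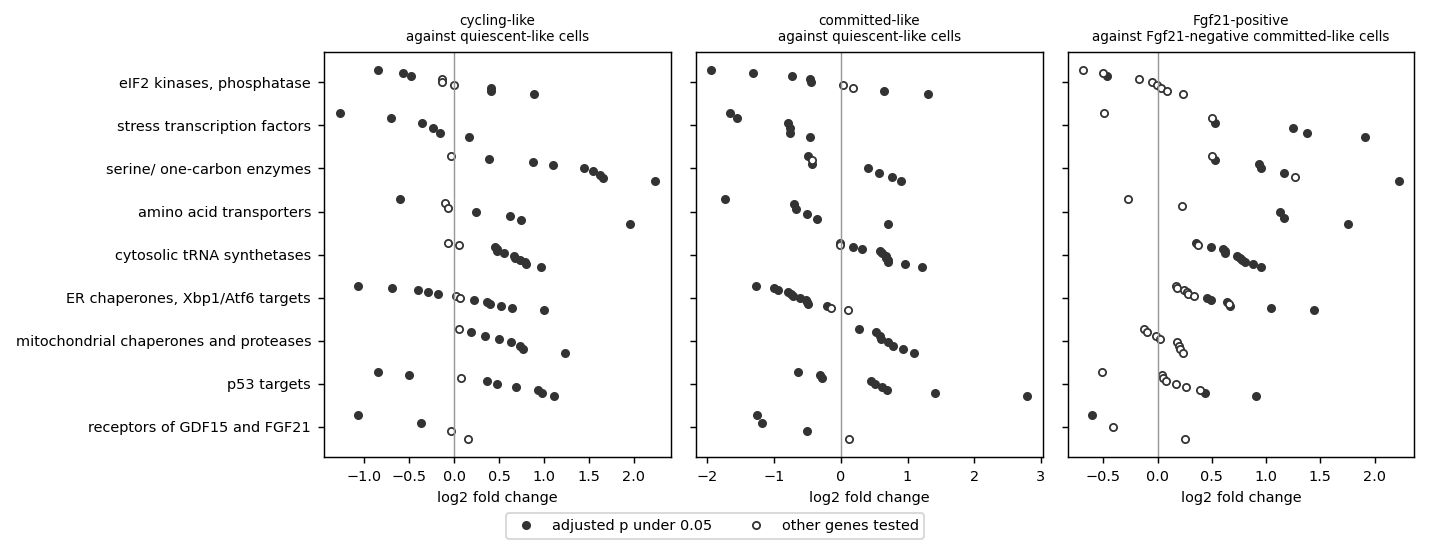
Log2 fold changes of the genes of 9 lists in cycling-like against quiescent-like cells, committed-like against quiescent-like cells, and committed-like cells with against those without a UMI of Fgf21. Each point is a gene and filled points passed the threshold. The 12 tRNA synthetase genes lie mostly to the right of 0 in all 3 panels, while the 13 endoplasmic reticulum genes lie to the left in committed-like cells (median −0.62) and to the right in the Fgf21-positive ones (median 0.45).

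The genotype comparison asked whether loss of miR-501 goes with a change of these genes. In committed-like cells Fgf21 was at 6.98 ± 0.599 CPM in Pax7Cre and at 36.9 ± 28.0 CPM in miR-501KO (SD, n = 2 each). The miR-501KO libraries did not overlap the Pax7Cre libraries, and both KO libraries exceeded both controls for 17.2% of the 12147 genes fitted. The fitted difference was 2.39 on the log2 scale (SE 0.49), and 3.03 or 1.24 without miR-501KO replicate 1 or 2. No p is given, since this difference chose the gene. In an exact permutation test 2 libraries against 2 cannot give a two-sided p under 0.333.

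Few cells held most of these UMIs. Fgf21 was found in 40 of 578, 20 of 279, 30 of 257 and 32 of 274 committed-like cells of Pax7Cre replicates 1 and 2 and miR-501KO replicates 1 and 2. After each cell was thinned to 5000 UMIs, so that depth does not set the share, 2.25%, 1.79%, 3.89% and 4.74% of the cells were positive (95% Wilson intervals 1.32 to 3.81, 0.768 to 4.13, 2.13 to 7.01 and 2.79 to 7.95, for counting error only). These intervals overlap between the genotypes. In macrophage-like cells, with median depths of 16915 to 20812 UMIs against 33089 to 40039 in committed-like cells, 0 of 109, 50, 105 and 79 thinned cells were positive, which allows shares up to 2.75%, 6.00%, 2.86% and 3.80% at 3 counts of the total (upper Wilson limits 3.40%, 7.13%, 3.53% and 4.64%).

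Cells with at least 10 UMIs of Fgf21 numbered 3, 2, 7 and 9, and they held 30.6%, 61.7%, 73.8% and 92.5% of all Fgf21 UMIs of the class. Without them the level was 4.59, 2.87, 4.76 and 4.57 CPM, and the genotypes overlapped. Without the 5 richest cells of each library it was 3.82, 1.87, 6.96 and 16.0 CPM, and the genotypes did not overlap. The highest count in a cell was 17, 45, 25 and 113 UMIs. Both cuts were chosen after the data were seen. Within the early cluster 4 the values overlapped, as miR-501KO replicate 1 was lowest of the 4 libraries there, and within cluster 9 they did not. Cluster 9 made up 24.7%, 17.2%, 37.0% and 23.7% of the class.

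**Figure D3:**
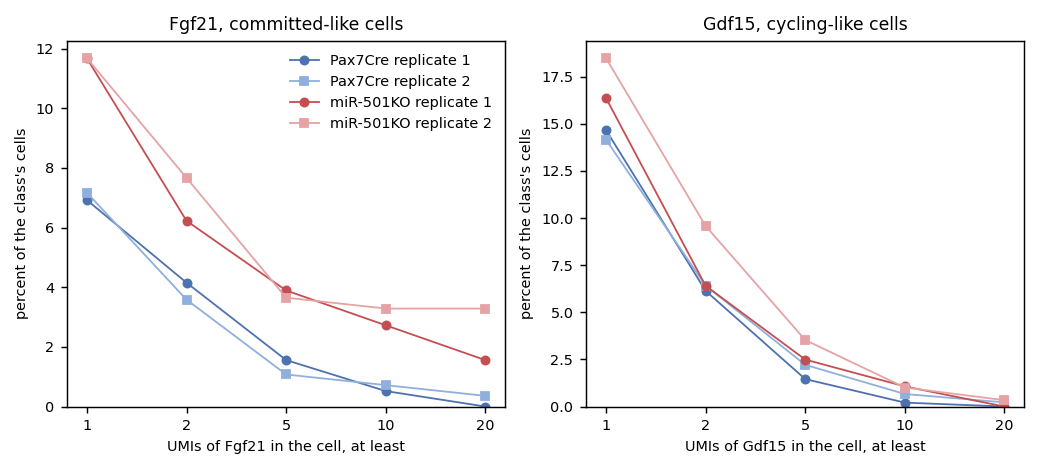
Percent of committed-like cells (left, Fgf21) and cycling-like cells (right, Gdf15) with at least 1, 2, 5, 10 or 20 UMIs of the gene, 1 line per library (blue Pax7Cre, red miR-501KO, circles and dark tones replicate 1, squares and light tones replicate 2). At 10 or more UMIs of Fgf21 the counts are 3 and 2 cells in Pax7Cre and 7 and 9 cells in miR-501KO.

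Of the other genes in committed-like cells, Asns was 0.71 higher in miR-501KO (SE 0.20; 30.2 ± 4.98 against 50.8 ± 11 CPM) and Chac1 1.07 (SE 0.40), and their groups did not overlap. Without miR-501KO replicate 2 the Asns difference was 0.45, and within cluster 4 Asns was at 13.6 and 14.3 CPM in Pax7Cre and at 13.3 and 24.5 CPM in miR-501KO, which overlap. Gdf15 passed the filter on low counts only through the miR-501KO libraries, so no fold is given. It was at 0.495 ± 0.477 CPM in Pax7Cre and at 1.85 ± 0.736 CPM in miR-501KO, without overlap. These levels rest on the few UMIs given above, of which 16 of the 25 in miR-501KO replicate 2 came from 1 cell. Trib3 was too rare for the fit, and its groups did not overlap either. The differences of Ddit3 (0.05, SE 0.14), Atf4 (0.21, SE 0.17) and Sesn2 (0.39, SE 0.38) were near or under their SE, although the levels of Ddit3 did not overlap. In the fit of all 12147 genes edgeR called 0 genes with Benjamini-Hochberg adjustment, 295 had an unadjusted p under 0.05 and DESeq2 called 1.

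In cycling-like cells Gdf15 was at 7.0 ± 0.391 CPM in Pax7Cre and at 11.4 ± 0.920 CPM in miR-501KO (SD, n = 2 each). The groups did not overlap, which held for 12% of the 13424 genes fitted in that direction. The fitted difference was 0.69 on the log2 scale (SE 0.17) and stayed between 0.56 and 0.82 when each library was left out. Without cluster 12, a shallow cluster that made up 26.0% of the cycling-like cells of miR-501KO replicate 1 and 2.0 to 5.4% in the others, the levels were 6.69, 7.11, 10.4 and 12.2 CPM. Without cells of 10 or more UMIs of Gdf15 they were 6.13, 4.96, 7.30 and 8.73 CPM. Both of these orders keep the miR-501KO libraries above the Pax7Cre libraries. Like the fits with a library left out, they re-use the values that chose the gene and add no support.

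By cluster, Gdf15 was at 7.62, 11.1, 11.4 and 16.8 CPM in cluster 3, led by replication histone genes, at 5.90, 4.51, 12.0 and 8.0 CPM in cluster 5, led by DNA replication genes, and at 5.86, 1.45, 7.70 and 8.87 CPM in the mitotic cluster 7. The genotypes did not overlap in any of these 3 clusters, though 11.1 and 11.4 CPM lay close in cluster 3. The clusters are parts of the class that chose the gene, so this is a description and adds no support. In cluster 12, with 10.8, 27.2, 15.6 and 0 CPM, the genotypes overlapped. After thinning, 3.12%, 2.88%, 3.38% and 4.71% of cycling-like cells were positive for Gdf15, against 1.31%, 0.855%, 1.05% and 1.54% of the shallower quiescent-like cells. Fgf21 (0.21), Atf4 (0.10), Ddit3 (−0.09), Trib3 (−0.31), Chac1 (0.23), Asns (0.28) and Sesn2 (0.11) all overlapped between the genotypes in cycling-like cells. edgeR called 1 gene in cycling-like cells, which is 0.00745% of those fitted and none of the 8, and 352 genes had an unadjusted p under 0.05. With the run as a block the number was 30.

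Over all cells of a library, the unnamed clusters included, Fgf21 was at 2.35 ± 0.498 CPM in Pax7Cre and at 6.92 ± 3.41 CPM in miR-501KO, and Gdf15 at 15.6 ± 2.17 and 23.4 ± 6.53 CPM (SD, n = 2 each). These were the only 2 of the 8 genes whose groups did not overlap there, where both miR-501KO libraries lay above both controls for 15.4% of 15725 genes and below both for 9.98%. Without the clusters that belonged almost only to miR-501KO replicate 1, Gdf15 was at 17.1 and 14.0 CPM in Pax7Cre and at 25.6 and 17.2 CPM in miR-501KO, and the gap between the groups had nearly closed. The 2 cells that miR-501KO replicate 2 lost thereby held 122 of its 1386 Gdf15 UMIs in 1 cell. Macrophage-like cells, with 1363 of 1955, 710 of 1009, 1306 of 2380 and 711 of 1386 Gdf15 UMIs, made up 3.17%, 2.73%, 3.71% and 3.36% of the libraries, and their part in the result was not tested.

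Quiescent-like cells were not used to choose the genes, so the genotype was tested there. Of the 6 genes that passed the filter, Chac1 is described without a fold or a p. With 8 UMIs in Pax7Cre replicate 1 it did not pass among the Pax7Cre libraries alone. None of the others was called (edgeR, adjusted p = 0.9999 for each). The log2 fold changes were −0.20 for Gdf15 (SE 0.37), 0.08 for Atf4 (SE 0.17), −0.10 for Ddit3 (SE 0.15), −0.25 for Asns (SE 0.19) and −0.28 for Sesn2 (SE 0.31). Chac1 was the only 1 of the 6 whose groups did not overlap, in a class where both miR-501KO libraries exceeded both controls for 21.6% of genes and lay below both for 8.34%. Gdf15, Atf4, Ddit3 and Sesn2 changed sign in at least 1 of the fits that leave out a library. Over all 12470 genes 0 were called, 449 had an unadjusted p under 0.05, DESeq2 called 4 and the fit with the run as a block called 54, none of them among the 6. In data simulated for this comparison, 11.9% of 1.5-fold and 67.2% of 2-fold changes were recovered. The absence of a call therefore does not show the absence of a change.

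The pathway lists were described in the same genotype fits. In committed-like cells 11 of 12 tRNA synthetase genes lay above 0 with a median log2 fold change of 0.16, as did all 6 of the other stress transcription factors (median 0.33), 6 of 7 serine and one-carbon enzymes (0.18), 5 of 6 amino acid transporters (0.28) and 7 of 8 mitochondrial chaperones and proteases (0.05), beside a median of −0.012 over all genes. Of the endoplasmic reticulum genes 7 of 13 lay above 0 (0.008), of the eIF2 kinase and phosphatase genes 5 of 9 (0.06), of the p53 targets 3 of 9 (−0.04) and of the receptors 1 of 4 (−0.03). In cycling-like cells 11 of 12 tRNA synthetase genes also lay above 0, with a median of 0.038 beside −0.002 over all genes. The counts there were 7 of 8 mitochondrial chaperones and proteases (0.07) and 7 of 9 serine and one-carbon enzymes (0.06). They were 9 of 13 endoplasmic reticulum genes (0.01), 6 of 9 eIF2 kinase and phosphatase genes (0.05) and 6 of 9 p53 targets (0.07). Stress transcription factors had 4 of 6 (0.07), receptors 3 of 5 (0.12) and transporters 3 of 9 (−0.05). In quiescent-like cells 0 genes of the 9 lists were called. Of the 13 endoplasmic reticulum genes 1 lay above 0 there (median −0.13, beside 0.006 over all genes). Of 6 transporters it was 1 (−0.16), of 8 serine and one-carbon enzymes 2 (−0.08) and of 12 tRNA synthetases 7 (0.07). Of 9 eIF2 kinase and phosphatase genes it was 6 (0.05), of 6 stress transcription factors 3 (−0.003) and of 8 mitochondrial genes 3 (−0.03). Of 9 p53 targets it was 4 (−0.02) and of 4 receptors 3 (0.03).

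A comparison added after the data were seen asked what else was expressed by the committed-like cells that held Fgf21. In each library the cells with at least 1 UMI of Fgf21 were summed and set against all other committed-like cells, in edgeR with the library as a block. The groups of 40, 20, 30 and 32 positive cells were compared with 538, 259, 227 and 242 negative cells. The positive cells were deeper, with median depths of 49720 to 59940 UMIs against 30827 to 39480, so the comparison was repeated with the split made on thinned cells. Of 10710 genes, 9.07% were called, 5.85% higher and 3.22% lower in positive cells.

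Asns rose in the Fgf21-positive cells of every library. It was at 94.4, 81.3, 117 and 169 CPM in positive and at 27.3, 20.8, 28.1 and 33.9 CPM in negative cells of Pax7Cre replicates 1 and 2 and miR-501KO replicates 1 and 2. The 2 sides did not overlap, and the log2 fold change was 2.13 (SE 0.12, adjusted p = 5.7e-05), the 99.9 percentile of all genes. With the thinned split, where 5.64% of genes were called and 3.67% were higher, it was 2.72 (adjusted p = 2.0e-04), within cluster 4 alone 1.4 (adjusted p = 4.4e-04) and within cluster 9 alone 1.60 (adjusted p = 0.0089).

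Atf4 was at 174, 190.2, 175 and 217 CPM in Fgf21-positive and at 108, 139, 129.9 and 157 CPM in Fgf21-negative cells. Positive cells were higher in 4 of 4 libraries without overlap, by 0.60 on the log2 scale (SE 0.086, adjusted p = 0.0046). The difference was 0.72 with the thinned split (adjusted p = 0.020), 0.48 within cluster 4 (0.013) and 0.60 within cluster 9, where it was not called (0.17) and where only 14 of 8200 genes, 0.171%, were called at all. Asns and Atf4 were also called without each of the 4 libraries in turn, with Asns between 2.01 and 2.21 and Atf4 between 0.53 and 0.64.

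The other members did not pass the test or the filter in Fgf21-positive cells. Ddit3 was at 13.9, 30.1, 40.7 and 31.2 CPM against 21.3, 20.9, 18.9 and 20.4 CPM (log2 fold change 0.54, adjusted p = 0.21). Sesn2 did not pass the filter among negative cells alone and is given by its levels. It was at 4.64, 2.44, 3.04 and 7.27 CPM against 1.19, 2.53, 2.08 and 2.08 CPM. Trib3, too rare to test, had 2, 2, 8 and 5 of its UMIs in positive cells and 2, 0, 0 and 2 in the far larger group of negative cells. Chac1, also below the filter, was at 9.28, 0.813, 7.90 and 17.1 CPM in positive and at 0.811, 1.22, 1.1 and 0.926 CPM in negative cells, and Pax7Cre replicate 2, with 1 Chac1 UMI in positive cells, went against the other 3. Gdf15 had 1, 1, 9 and 16 UMIs in positive cells, the last of them from 1 cell.

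**Figure D4:**
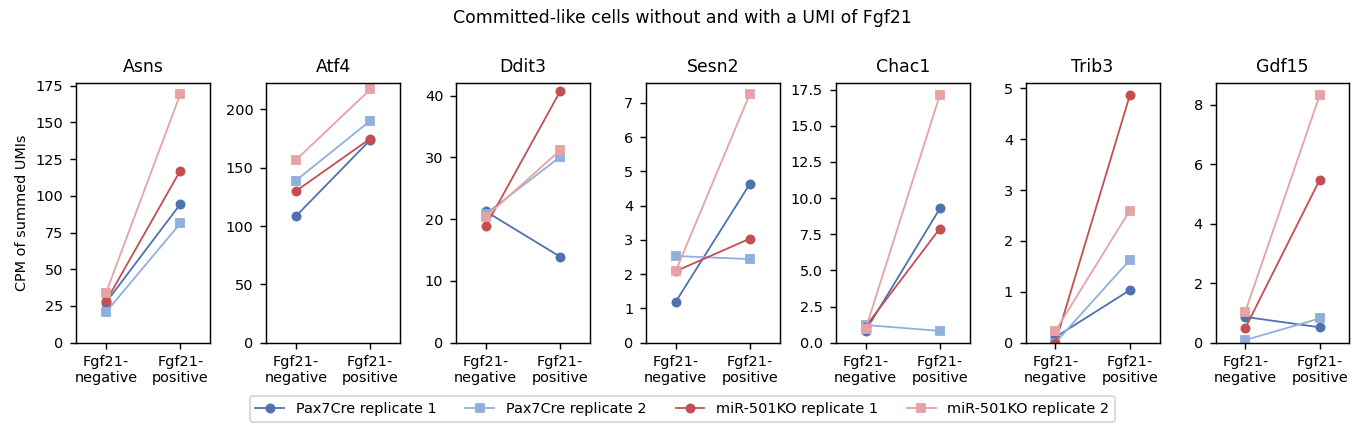
Level of the 7 other genes in committed-like cells without and with a UMI of Fgf21, in CPM of summed UMIs, with 1 line per library (blue Pax7Cre, red miR-501KO, circles and dark tones replicate 1, squares and light tones replicate 2). All 4 lines rise for Asns, from 20.8 to 33.9 CPM up to 81.3 to 169 CPM, and for Atf4, while Ddit3, Sesn2, Chac1 and Gdf15 each fall in 1 of 4 libraries.

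In Fgf21-positive cells 11 of 12 tRNA synthetase genes were higher and 0 lower, led by Cars (0.95), Aars (0.88) and Nars (0.80), with a list median of 0.68 beside −0.005 over all genes. Of the serine and one-carbon enzymes 5 of 7 were higher: Mthfd2 by 2.22 (SE 0.11, adjusted p = 4.8e-05), the proline enzyme gene Aldh18a1 by 1.17 and Phgdh by 0.95 led them. Of the transporters 3 of 5 were higher, Slc7a5 by 1.75 and Slc3a2 by 1.16, whose products form 1 leucine transporter, and the arginine transporter gene Slc7a1 by 1.13. Of the other stress transcription factors 4 of 6 were higher, with Nupr1 at 1.91 (SE 0.10, adjusted p = 5.7e-05), Jdp2 at 1.38 and Atf5 at 1.25.

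Endoplasmic reticulum genes were higher for 6 of 13, with Sdf2l1 at 1.45, Herpud1 at 1.04 and Hspa5, the chaperone BiP, at 0.67. Mitochondrial chaperones and proteases had 0 of 8 called in either direction and a median of 0.10. Of the p53 targets 2 of 9 were higher (Cdkn1a 0.91, Bax 0.44), of the eIF2 kinase and phosphatase genes 1 of 9 was lower (Eif2ak1 −0.46), and of the receptors 1 of 3 was lower (Fgfr1 −0.61).

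These counts depended on the cells compared. With the thinned split 8 tRNA synthetase genes, 3 serine and one-carbon enzymes, 4 transporters and 2 endoplasmic reticulum genes were higher. Within cluster 4 the counts were 2, 3, 2 and 6, and within cluster 9 they were 0, 1, 2 and 0, where the positive cells numbered 5 to 23 per library. Over all genes, 3.67% were called higher with the thinned split, 3.6% within cluster 4 and 0.0976% within cluster 9. In all alternatives run for this comparison, members called lower were found in the eIF2 kinase, p53 and receptor lists alone. The summed myofibre markers of positive and negative cells were at 23330 and 8553 CPM in Pax7Cre replicate 1 but at 8565 and 25915 CPM in replicate 2, and macrophage markers were at 17.1 to 26.1 CPM in positive and at 16.6 to 37.8 CPM in negative cells. Their part in the result was not tested.

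The same comparison was made for cycling-like cells with and without a UMI of Gdf15, also after the data were seen. The positive cells numbered 141, 64, 92 and 110 and the negative cells 820, 388, 470 and 485, with median depths of 51098 to 65198 against 35836 to 48340 UMIs. Of 12336 genes 28.3% were called. Of the members Sesn2 (0.93), Chac1 (0.92), Asns (0.81), Ddit3 (0.35) and Atf4 (0.33) were called higher, while Fgf21 was not called (0.39, adjusted p = 0.41). Trib3 did not pass the filter among negative cells alone, so its fold of 1.58 is a description without a call. It held 15, 24, 8 and 20 UMIs in positive and 29, 28, 13 and 21 in negative cells. Without the library block the calls of Atf4 (adjusted p = 0.091) and Ddit3 (0.13) were lost. Macrophage markers were at 20.9, 25.6, 31.1 and 48.8 CPM in positive and at 23.6, 22.4, 28.9 and 15.6 CPM in negative cells, and their part in the result was not tested.

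When the split was made on thinned cells, the folds of Sesn2, Ddit3 and Atf4 stayed near those values, and those of Asns, Chac1 and Trib3 shrank or turned. There 3.76% of genes were called and Atf4 alone of the members, at 0.27 (adjusted p = 0.039). Sesn2 was at 0.87 (adjusted p = 0.062), Ddit3 at 0.38 (0.11) and Asns at 0.22 (0.57), and Chac1 and Trib3 changed sign to −0.05 and −0.99, neither called. Atf4 was at 217, 264, 213 and 289 CPM in the Gdf15-positive cells of the split without thinning and at 175, 223, 191 and 233 CPM in the negative cells, higher in 4 of 4 libraries.

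The last comparison set cells with a Ddit3 UMI against those without, after thinning, within each MP class. Ddit3 was found in 17.2 to 19.7% of quiescent-like, 13.0 to 16.3% of cycling-like and 10.4 to 11.3% of committed-like cells. In quiescent-like cells Atf4 was at 187, 237, 192 and 283 CPM in the positive and at 141, 204, 174 and 207 CPM in the negative cells. Positive cells were higher in 4 of 4 libraries, by 0.31 on the log2 scale (edgeR, SE 0.052, adjusted p = 0.0022), where 0.822% of 11309 genes were called. In cycling-like cells Atf4 was at 217, 270.0, 235 and 285 CPM in positive and at 177, 224, 189 and 239.7 CPM in negative cells, again higher in 4 of 4 libraries, by 0.28 (SE 0.036, adjusted p = 2.8e-04), where 1.28% of 12333 genes were called.

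In committed-like cells, with 29 to 60 positive cells per library, the difference of Atf4 was 0.37 (SE 0.088) in 4 of 4 libraries and not called (adjusted p = 0.55), where edgeR called 3 of 10778 genes, 0.0278%, 645 had an unadjusted p under 0.05 and DESeq2 called 16. Without the library block both Atf4 calls were lost (edgeR, adjusted p = 1.0 and 0.9997), and that in quiescent-like cells was also lost when cells with at least 2000 UMIs were used (0.092). No other member was called in any class. For the quiescent-like, the cycling-like and the committed-like class in this order, Sesn2 was at 0.53, 0.40 and 0.97 (edgeR, adjusted p = 0.51, 0.24 and 0.75) and Asns at −0.10, −0.12 and 0.04.

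Of the 82 listed genes, 6 were called with Ddit3 in the quiescent-like class and 6 in the cycling-like class, all higher. In quiescent-like cells they were Atf3 (0.54), Ppp1r15a (0.29), Cebpb (0.27), Herpud1 (0.32), Hspa5 (0.26) and Cdkn1a (0.55), and in cycling-like cells Atf3 (0.90), Ppp1r15a (0.53), Cebpb (0.35), Herpud1 (0.41), the transporter gene Slc38a2 (0.26) and Cdkn1a (0.20). Ppp1r15a encodes the phosphatase subunit GADD34, which ends the response. The lists of tRNA synthetases and of serine and one-carbon enzymes had 0 members called with Ddit3 in all 3 classes, with medians of −0.11 and −0.13 in quiescent-like and −0.06 and −0.05 in cycling-like cells. These counts stand beside 8 of 12 and 3 of 7 in Fgf21-positive committed-like cells of the split made on thinned cells, and the difference between the splits was not tested.

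The genes whose pattern was most like that of 7 of the members were taken over 24 sums of 6 classes in 4 libraries, as Pearson correlations of log2(CPM + 1). They describe the classes, since sums of a library share its depth and sums of a class its cells. For Gdf15 the closest were Ifi30 (0.97), Sh3bgrl3 (0.96) and Prkcd (0.96), and for Fgf21 Ermap (0.95), Ovol3 (0.93) and Ctrb1 (0.92). Asns was closest to Ube2m (0.89), Coq3 (0.88) and Gars (0.88), the glycyl-tRNA synthetase of the lists above. Chac1 was closest to Mybbp1a (0.89), Myod1 (0.87) and Eif3b (0.87), Ddit3 to Acap2 (0.94), Nr3c1 (0.94) and Aplp2 (0.94), and Sesn2 to Tmod3 (0.94), Sri (0.92) and Sh3bgrl (0.92). Atf4 had no neighbour as close, with Chek2 (0.78), Commd10 (0.76) and Slbp (0.76). Among the members, Fgf21 and Ddit3 ran most strongly against each other (−0.82), and Ddit3 and Sesn2 most closely together (0.78).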

How the data were processed

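Single-cell 3′ RNA libraries were made with the 10x method from sorted MPs of 3 pooled mice each, 2 libraries per genotype. The authors deposited unnormalized counts of UMIs per gene and barcode, written by Cell Ranger 6.0.2 per the file headers, and the processing notes name GRCm39. Barcodes under 5000 UMIs or under 1000 genes were left out, no doublet caller was run, and 10 barcodes were shared between libraries.

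Cells were clustered with scanpy 1.11.5 (2000 variable genes without the 8 genes and the listed genes, 30 components, 15 neighbours, Leiden resolution 0.5). A cluster was named where at least 3 markers of a class were raised 1.5-fold and detected in 10% of its cells. It stayed unnamed with fewer than 20 cells, or where another class led its top genes. The same held where at least 3 markers of another lineage were raised, at 0.5 or more of the share of its own. Shallow clusters also needed a marker of the class among their leading genes. The rule for myofibre markers was changed after the clusters were seen, and the other version was run as an alternative. UMIs were summed per library and class and tested with edgeR 4.0.16 in R 4.3.3 (TMM, filterByExpr, quasi-likelihood, Benjamini-Hochberg adjustment over all genes). CPM use all UMIs of the class in a library as the total. Thinning drew 5000 UMIs from each cell at random. The scripts were tested on simulated data. The 8 genes, and for each list the 3 called genes with the largest change, are named, together with the 3 genes most like each member, which are not reported here for Trib3.

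The members, lists and tests were chosen with earlier results of these data known, and the comparisons by Fgf21 and Gdf15 were added after the data were seen. Libraries are the replicates, and 2 per genotype measure only the spread between these pools. Same-numbered libraries share a run by their labels, which pairs them. The correlation of their run differences was −0.02, −0.19, −0.05 and 0.17 in quiescent-like, committed-like, cycling-like and all cells. Alternatives were other size factors, DESeq2 1.42.0, no filter, at least 2000 UMIs, at most 10% mitochondrial UMIs, other clusterings, the block and each library left out. Where a library was left out of a genotype comparison, the lone library was assumed to vary like the others. Intervals cover counting error only.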

Additional observations from a re-analysis of the deposited data

How the results depend on the processing

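Counts of called genes moved by more than 1.5 times under several alternatives, and the cause was not tested. For the genotype in quiescent-like cells edgeR called 0 genes, DESeq2 4, at least 2000 UMIs and at most 10% mitochondrial UMIs 1 each, the replicate block 54, Leiden resolutions 0.3 and 1.0 2 and 10, clustering on all variable genes 5, and leaving out a library 7 to 221. For committed-like cells the 0 became 1 with DESeq2, 2 with no filter, with resolution 1.0 and with myofibre markers as another lineage, and 2 to 105 without a library, except 0 without miR-501KO replicate 2. For cycling-like cells the 1 became 2 with DESeq2, 50 with no filter, 30 with the replicate block, 0 with either resolution and with all variable genes, and 2 to 44 without a library. Over all cells the 0 became 12 with DESeq2 and 0 to 3 without a library. For the Ddit3 comparison in quiescent-like cells the 93 became 46 with DESeq2, 231 with no filter, 36 with at least 2000 UMIs, 1 without the block, 147 with resolution 0.3 and 143 with all variable genes. In committed-like cells the 3 became 16, 41 and 8 under the first 3 of these, 17 with myofibre markers as another lineage and 1 to 16 without a library. In cycling-like cells the 158 became 100, 385 and 30, 2 without the block and 69 to 215 without a library. For the Fgf21 comparison the 971 became 1477 with resolution 1.0, 524 with myofibre markers as another lineage and in cluster 4 alone, 14 in cluster 9 alone, 600 with the thinned split and 345 to 1656 without a library. For the Gdf15 comparison the 3489 became 2044 with DESeq2, 1287 without the block and 458 with the thinned split. Signs changed for genotype differences in quiescent-like cells. Leaving out each library in turn gave −0.55 to 0.26 for Gdf15 (0.26 without Pax7Cre replicate 1), −0.14 to 0.31 for Atf4 (−0.11 without Pax7Cre replicate 1 and −0.14 without miR-501KO replicate 2), −0.28 to 0.052 for Ddit3 (0.052 without miR-501KO replicate 1) and −0.65 to 0.23 for Sesn2 (0.23 without Pax7Cre replicate 2 and 0.016 without miR-501KO replicate 1), and Gdf15 was 0.13 with all variable genes. They also changed for Chac1 in committed-like against quiescent-like cells, at −0.096 with myofibre markers as another lineage, and in the thinned Gdf15 split for Trib3 (−0.99) and Chac1 (−0.047). The block changed no other call of a member than those given with the results.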

Other observations

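In the clusters found almost only in miR-501KO replicate 1, Gdf15 was at 39.5 CPM in cluster 6, led by Gzma and Mylpf, and Fgf21 at 6.29 CPM there, in 88 of 659 cells. The summed macrophage markers were at 2546 CPM in cluster 6, against 39542 CPM in macrophage-like cells of that library. Their part in the Gdf15 level was not tested. In cluster 16 Fgf21 was at 18.7 CPM. These clusters have no counterpart in the other libraries and entered no comparison between classes.

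The fourth highest Gdf15 count of any cell came from outside the macrophage-like class. A cell of miR-501KO replicate 2 in the unnamed cluster 17 held 122 UMIs of Gdf15 among 11070 UMIs, or 11021 CPM, while the highest count, 190 UMIs, was in a macrophage-like cell.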
